A study of Mus musculus with 4 samples.

Results

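The genes described here encode subunits of the voltage-gated sodium channel in the mouse prefrontal cortex (PFC). They are the alpha subunit genes *Scn1a*, *Scn2a* (listed in the files under its older symbol Scn2a1), *Scn3a* and *Scn8a*, and the beta subunit genes *Scn2b*, *Scn3b* and *Scn4b*. These 7 genes are given by name, a choice made with earlier results of these data known, out of 23420 gene symbols measured. RNA-seq was made from 2 control and 2 *Ash1L* shRNA samples of C57BL6/J mice, which the labels call bulk lysate of PFC. Control mice received a GFP AAV9 according to the labels and a scrambled shRNA AAV according to the study's methods, and the other mice received an AAV9 with an shRNA against *Ash1L*, a gene for a histone methyltransferase. The shRNA was driven by the U6 promoter, which is active in any infected cell type, and was injected bilaterally into the medial PFC of wild-type mice aged 5 weeks. The series describes the mice as 6 to 8 weeks old and names 3 *Ash1L* shRNA mice and 2 control mice, whereas by the methods each sample pooled 3 mice. Punches with GFP fluorescence were taken, so infected and uninfected cells of all types were measured together. In such bulk tissue, fewer cells of a type and less RNA per cell cannot be told apart.

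Voltage-gated sodium channels open when the membrane is depolarized and carry the inward current that starts and propagates the action potential. The large alpha subunit forms the pore and carries the voltage sensors, and the small beta subunits cross the membrane once, carry an immunoglobulin-like domain outside the cell, and tune gating, surface expression and adhesion. In cortex, *Scn2a* (Nav1.2) and *Scn8a* (Nav1.6) serve mainly the axon initial segment of excitatory neurons, *Scn1a* (Nav1.1) is most important in parvalbumin interneurons, and *Scn3a* (Nav1.3) is known as the form of the embryonic brain. Variants of *SCN1A*, *SCN2A*, *SCN3A* and *SCN8A* are known causes of epilepsy. The comparison asked whether RNA of these subunits differed in PFC with *Ash1L* knockdown.

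Total counts per sample ran from 14251190 to 35764874, and control sample 1 was the shallowest. All 7 genes had at least 517 counts in every sample and all 7 passed the filter on low counts, which kept 16232 genes. *Ash1l*, which the shRNA targets, had 5246 and 3345 normalized counts with knockdown against 5961 and 7057 in the controls (log2 fold change, log2FC, -0.60, standard error, SE, 0.22, adjusted p = 0.275 by edgeR's quasi-likelihood test). Against the mean of the controls, its log2 difference was -0.31 in the first *Ash1L* shRNA sample and -0.96 in the other. Whether this came from the depth of the knockdown, the share of infected cells or the mix of cells was not tested. Normalized counts are counts scaled with TMM factors to the mean library size. DOWN and UP stand for an unadjusted P under 0.05 with at least a 1.2-fold change. These limits follow the definition in the study's methods. The labels call the samples of a group biological duplicates, and p-values rest on the spread between these samples only. The fits draw the spread of each gene toward that of the other genes tested.

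Of the 7 subunit genes, *Scn2a* and *Scn3a* were DOWN and 0 were UP in *Ash1L* shRNA samples. Over all 16232 genes tested, 8.28% were DOWN and 8.61% were UP. The *Ash1L* shRNA samples lay below both controls for 5 subunit genes (*Scn2a*, *Scn3a*, *Scn8a*, *Scn3b* and *Scn4b*), and above both for 0. Among all genes tested, such separation occurred downward in 26.8% and upward in 26.5%. The counts of *Scn1a* and *Scn2b* overlapped between the groups. After adjustment over all genes, edgeR's quasi-likelihood test called 0 of the 7 at 0.05 and 1 gene in all (0.00616%). DESeq2 called 162 genes lower and 259 higher after adjustment and edgeR's likelihood ratio test called 158 and 321, with 0 of the 7 among the calls of either. The median log2FC of the 7 genes was -0.18, beside -0.0027 over all genes tested. The plot of counts by sample shows each gene on its own axis.

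**Figure D1:**
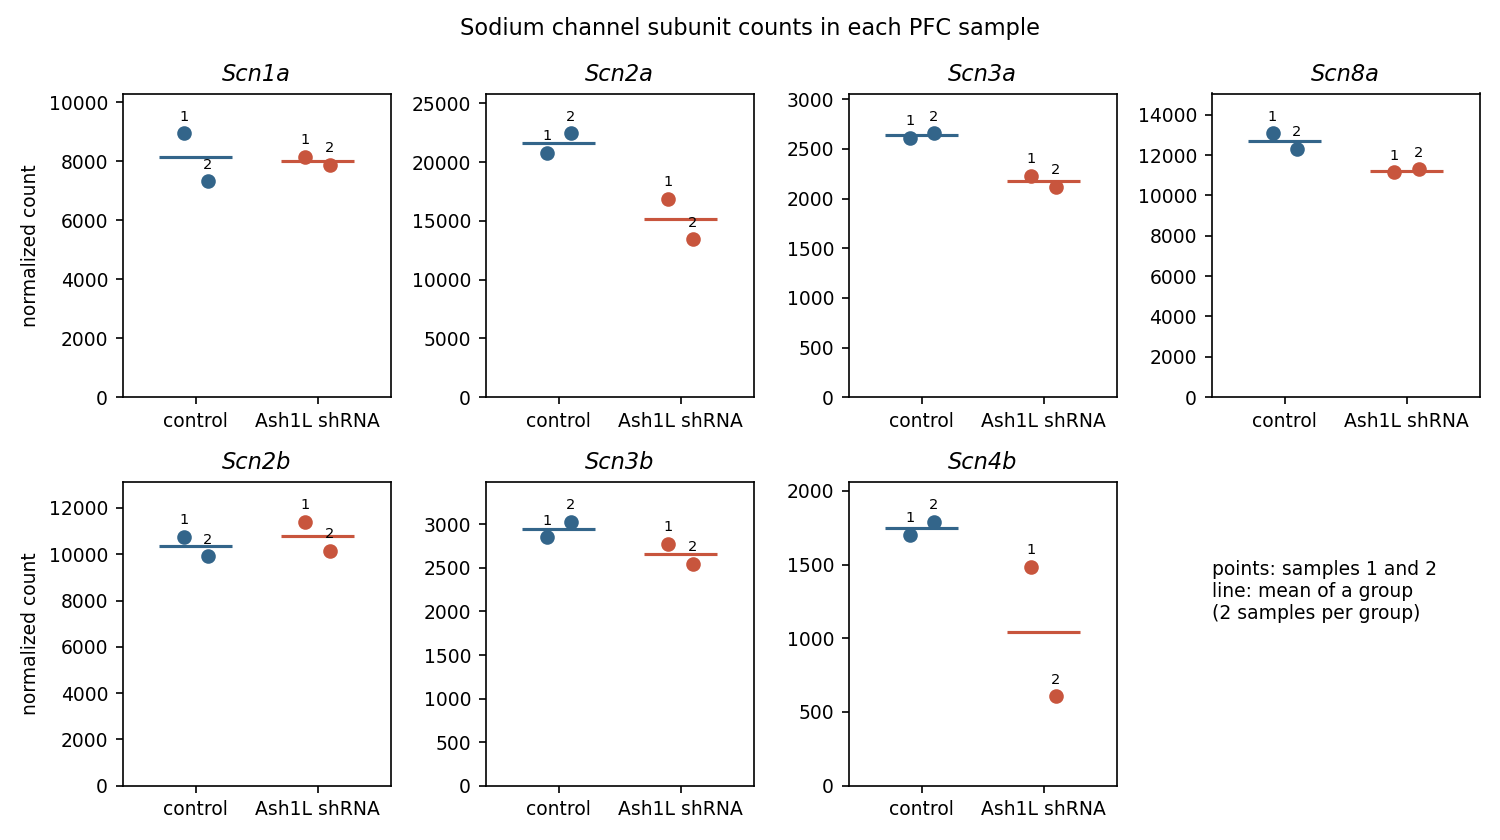
Normalized counts (y axis, from 0) of the 7 subunit genes in control and *Ash1L* shRNA samples (x axis). Points are samples, numbered as in the labels, and lines are group means of 2 samples. *Scn2a* lies between 20803 and 22467 in control and between 13423 and 16885 in *Ash1L* shRNA samples, and the low point of *Scn4b* at 607 belongs to *Ash1L* shRNA sample 2.

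Among the alpha subunits, *Scn2a* (ENSMUSG00000075318, mm10 chromosome 2, 65620771 to 65767447, plus strand) differed most. Its normalized count was 20803 and 22467 in control samples 1 and 2, and 16885 and 13423 in *Ash1L* shRNA samples 1 and 2. Both knockdown samples were below both controls, and sample 2 was the lower of them. The group values were 21635 ± 1177 and 15154 ± 2448 (SD, n = 2 each), a log2FC of -0.51 with SE 0.15. The unadjusted P was 0.012 and the adjusted p was 0.260 by edgeR's quasi-likelihood test. *Scn2a* kept its direction under all 15 alternatives and was DOWN under 14 of them. Without control sample 2 it was not DOWN, with a log2FC of -0.46 and a P of 0.077, and without *Ash1L* shRNA sample 1 the log2FC was -0.69 with an adjusted p of 0.0139 by edgeR's quasi-likelihood test. In that last fit the controls alone supply the spread, the lone knockdown sample is assumed to vary like them, and 1358 genes lower and 1144 higher of 16494 passed the adjusted limit.

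*Scn3a* (ENSMUSG00000057182, mm10 chromosome 2, 65457118 to 65567627, minus strand), the gene most used before birth, lay next to *Scn2a* and had a smaller difference. The control samples had 2614 and 2659 normalized counts, and the *Ash1L* shRNA samples had 2229 and 2119. The replicates were close within each group, and the groups did not overlap. Its log2FC was -0.28 (SE 0.11, adjusted p = 0.278 by edgeR's quasi-likelihood test). The unadjusted P of 0.038 was near the limit. *Scn3a* was DOWN under 5 of 15 alternatives and not under the other 10, among them DESeq2 and the block by replicate number, while its log2FC stayed between -0.32 and -0.24.

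*Scn8a* (ENSMUSG00000023033, mm10 chromosome 15, 100869858 to 101045938, plus strand), whose channel also serves the nodes of Ranvier, had slightly lower counts in both knockdown samples. It had 13093 and 12320 normalized counts in control and 11158 and 11312 in *Ash1L* shRNA samples. The groups did not overlap, but the log2FC of -0.18 (SE 0.11) was not called, with an adjusted p of 0.435 by edgeR's quasi-likelihood test. Unlike *Scn2a*, its difference from control was similar in knockdown samples 1 and 2, at -0.19 and -0.17 on the log2 scale.

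*Scn1a* (ENSMUSG00000064329, mm10 chromosome 2, 66270778 to 66440840, minus strand), in which loss of 1 copy causes Dravet syndrome in people, showed no detectable difference. Its normalized counts were 8960 and 7326 in control samples and 8151 and 7891 in *Ash1L* shRNA samples. The knockdown samples lay between the controls. The log2FC was -0.02 with SE 0.13 (adjusted p = 0.950 by edgeR's quasi-likelihood test), and its sign was not stable, running from -0.16 without control sample 2 to 0.14 without control sample 1. Fast-spiking parvalbumin interneurons are the cells that depend most on *Scn1a*. Of their 6 markers, 5 were DOWN and 0 UP (*Pvalb*, a calcium buffer, had a log2FC of -0.90, *Kcnc2* -0.55 and *Kcnc1* -0.35, both fast potassium channels). *Pvalb* was DOWN under all 15 alternatives, *Kcnc2* under 13 (log2FC -0.30 without *Ash1L* shRNA sample 2) and *Kcnc1* under 8 (-0.21 without control sample 1). Their summed level was 321 to 354 CPM (counts scaled to libraries of the same size) in control and 208 to 266 in *Ash1L* shRNA samples, and none of the 6 was at 0 in any sample. The part of these cells in the *Scn1a* result was not tested.

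Of 8 markers of excitatory neurons, 4 were DOWN and 0 UP, with a median log2FC of -0.40. Their summed level was 2732 to 3197 CPM in control and 2176 to 2539 in *Ash1L* shRNA samples. *Camk2a* and *Neurod6* were DOWN with log2FC values of -0.42 and -0.45, *Slc17a7*, the vesicular glutamate transporter, had -0.30 and was not called, and *Nrn1* had 0.14. *Camk2a* was DOWN under 9 of 15 alternatives, with -0.24 without control sample 2, and *Neurod6* under 11, with -0.21 without *Ash1L* shRNA sample 2. Among 12 pan-neuronal markers the median was -0.06 and 1 was DOWN, the synaptic vesicle calcium sensor *Syt1* (log2FC -0.69, and -0.42 without *Ash1L* shRNA sample 2). The summed level of the 12 was 9057 to 9297 CPM in control and 7430 to 8407 in *Ash1L* shRNA samples. No marker of either list was at 0 in any sample, and the part of a change in excitatory neurons in the values of *Scn2a* and *Scn3a* was not tested.

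Among the beta subunits, *Scn2b* (ENSMUSG00000070304, mm10 chromosome 9, 45117782 to 45130070, plus strand), which is bound to the alpha subunit by a disulfide bridge, did not separate the groups. It had 10756 and 9917 normalized counts in control and 11411 and 10160 in *Ash1L* shRNA samples. The ranges overlapped, and the log2FC was 0.06 with SE 0.12 (adjusted p = 0.818 by edgeR's quasi-likelihood test). Its sign turned to -0.03 without *Ash1L* shRNA sample 1.

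*Scn4b* (ENSMUSG00000046480, mm10 chromosome 9, 45138395 to 45154152, plus strand), the other disulfide-linked beta subunit and the source of the blocking peptide linked to resurgent sodium current, begins 8.3 kb after the end of *Scn2b* on the same strand. Its normalized counts were 1704 and 1792 in control, 1485 in *Ash1L* shRNA sample 1 and 607 in sample 2. The controls were close to each other, sample 1 was slightly below them, and sample 2 stood far below. The log2FC of -0.74 was the largest of the 7 genes, but its SE was 0.41 and it was not called (unadjusted P = 0.127, adjusted p = 0.400 by edgeR's quasi-likelihood test). *Ash1L* shRNA sample 2 decided this value. Without sample 2 the log2FC was -0.23, and without sample 1 it was -1.53 with an adjusted p of 0.00131 by edgeR's quasi-likelihood test, in the fit with the controls alone for the spread. A block by replicate number gave a log2FC of -0.88, and *Scn4b* was DOWN (edgeR, adjusted p = 0.390).

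*Scn4b* is known for its high level in striatum, which lies close to the PFC. Of 10 markers of striatal projection neurons, 3 were UP and 1 was DOWN, with a median log2FC of 0.44, and their summed level was 234 to 242 CPM in control and 268 and 361 CPM in *Ash1L* shRNA samples 1 and 2. *Rgs9* and *Pde10a*, signaling enzymes of striatal neurons, were UP with log2FC values of 0.96 and 0.31. *Rgs9* had 0.43 without *Ash1L* shRNA sample 2, and *Pde10a* was UP under 9 of 15 alternatives. None of the 10 was at 0 in any sample, and the part of striatal cells in the *Scn4b* values was not tested.

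*Scn3b* (ENSMUSG00000049281, mm10 chromosome 9, 40269217 to 40291618, plus strand), which binds the alpha subunit without a covalent bond, had 2854 and 3032 normalized counts in control and 2777 and 2551 in *Ash1L* shRNA samples. The groups were separate, but by a margin smaller than the spread of either group, and the gene was not called (log2FC -0.14, SE 0.11, adjusted p = 0.533 by edgeR's quasi-likelihood test).

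Levels of different genes were compared as normalized counts per kilobase of exonic length. In control samples the alpha subunits followed the order *Scn2a* (1699 ± 92.4), *Scn8a* (806 ± 34.7), *Scn1a* (731 ± 104) and *Scn3a* (212 ± 2.5 per kilobase, SD, n = 2). The ranges of *Scn8a* and *Scn1a* overlapped, and the other neighbours in this order were separate. The beta subunits followed the order *Scn2b* (2220 ± 127), *Scn3b* (539 ± 23.1) and *Scn4b* (351 ± 12.4 per kilobase), without overlap between neighbours. In *Ash1L* shRNA samples, *Scn4b* (210 ± 125 per kilobase) overlapped with *Scn3a* (174 ± 6.24). *Scn8a* (713 ± 6.88) and *Scn1a* (720 ± 16.5 per kilobase) overlapped there as well, and *Scn1a* had the higher mean.

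Shares of the subunit pool within a sample do not depend on the scaling between samples. *Scn2a* took 47.0% and 51.6% of the summed alpha level per kilobase in control samples, and 45.0% and 39.8% in *Ash1L* shRNA samples 1 and 2. This share was lower in both knockdown samples, by 6.9 percentage points in the mean, with SDs of 3.30 and 3.72 points in the groups. The difference was -4.27 points without *Ash1L* shRNA sample 2, -4.56 without control sample 2 and -9.52 without *Ash1L* shRNA sample 1. Shares of *Scn1a* (19.2% to 23.1% in control, 24.8% to 26.7% in *Ash1L* shRNA samples) and *Scn8a* (22.9% to 23.9%, then 24.0% to 27.1%) were higher in both. The shares of a sample sum to a fixed whole, so a lower share of *Scn2a* raises the others. In normalized counts, *Scn8a* was lower in both knockdown samples and *Scn1a* overlapped. The share of *Scn3a*, between 6.03% and 6.42%, overlapped. In counts, *Scn2a* exceeded *Scn1a* by 1.22 and 1.62 on the log2 scale in control and by 1.05 and 0.77 in *Ash1L* shRNA samples.

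Of the summed level of *Scn2b*, *Scn3b* and *Scn4b*, *Scn2b* made up 72.8% and 70.0% in control and 75.2% and 78.7% in *Ash1L* shRNA samples. The share of *Scn4b* was 10.8% and 11.8% in control, 9.15% in *Ash1L* shRNA sample 1 and 4.40% in sample 2. The share of *Scn2b* was thus higher and that of *Scn4b* lower in both knockdown samples. The share of *Scn3b*, between 15.6% and 18.2%, overlapped. The normalized counts of *Scn2b* overlapped between the groups, and a lower share of *Scn4b* raises the other shares. In counts, *Scn4b* stood below *Scn2b* in every sample, with log2 ratios of -2.66 and -2.47 in control and of -2.94 and -4.07 in *Ash1L* shRNA samples. The ratio was lower in both knockdown samples, and most in sample 2. A permutation test of 2 against 2 samples cannot give a p below 0.333, and none of these shares was tested.

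**Figure D2:**
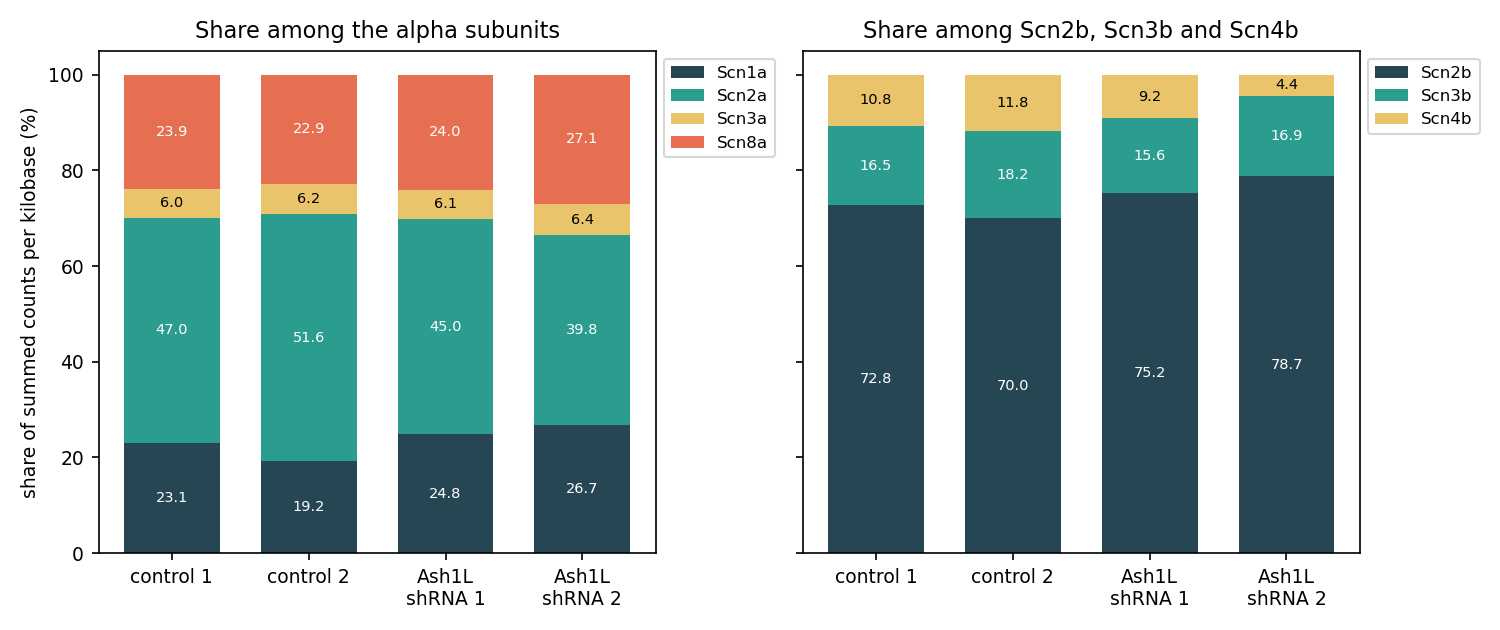
Share of each gene (y axis, percent of summed counts per kilobase of exonic length) among the alpha subunits (left) and among *Scn2b*, *Scn3b* and *Scn4b* (right) in each of the 4 samples (x axis). The *Scn2a* part goes from 47.0% and 51.6% in control to 45.0% and 39.8% in *Ash1L* shRNA samples, and the *Scn4b* part goes from 10.8% and 11.8% to 9.15% and 4.40%.

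Other sodium channel genes were read from a list of 6, of which 4 were tested, 1 was DOWN and 1 was UP. *Nalcn*, the voltage-independent sodium leak channel that helps set the resting potential, was DOWN, with 4810 and 5259 normalized counts in control and 4255 and 3188 in *Ash1L* shRNA samples (log2FC -0.44, SE 0.16, adjusted p = 0.270 by edgeR's quasi-likelihood test). *Nalcn* was DOWN under 9 of 15 alternatives, and its log2FC was -0.24 without *Ash1L* shRNA sample 2.

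*Scn7a*, whose product (Nax) senses the sodium level rather than voltage and is known from glia of the circumventricular organs, went the other way. It had 329 and 422 normalized counts in control and 467 and 843 in *Ash1L* shRNA samples. Both knockdown samples were above both controls, and sample 2 was far above, so that the log2FC of 0.79 (SE 0.30, UP, adjusted p = 0.281 by edgeR's quasi-likelihood test) was 0.30 without *Ash1L* shRNA sample 2. *Scn9a* (Nav1.7), a channel of sensory neurons, had 184 and 148 against 123 and 139 normalized counts and was not called. *Scn10a*, *Scn4a* and *Scn11a*, the channel genes of nociceptors and skeletal muscle, had at most 32 counts in any sample, and *Scn4a* and *Scn11a* were not tested.

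Genes for proteins that anchor, modulate or process sodium channels were read from a list of 14, all tested, of which 1 was DOWN and 1 was UP, with a median log2FC of -0.05. *Ank3*, the ankyrin G that holds the channels there, had a log2FC of -0.02 (SE 0.13), *Sptbn4*, the spectrin below it, had 0.06 (0.18), and *Nfasc*, its adhesion molecule neurofascin, had 0.07 (0.11). The adhesion molecule *Nrcam* and the contactin *Cntn1* were lower in both knockdown samples without a call, at -0.28 and -0.36. *Tnr*, the matrix protein tenascin R, overlapped at -0.07.

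The fibroblast growth factor homologous factors bind the tail of the alpha subunit inside the cell and shift its inactivation. *Fgf14* was DOWN. Its normalized counts were 1818 and 2036 in control and 1563 and 1038 in *Ash1L* shRNA samples, a log2FC of -0.57 with SE 0.20 (adjusted p = 0.265 by edgeR's quasi-likelihood test). It was not called without control sample 1, control sample 2 or *Ash1L* shRNA sample 2, where its log2FC was -0.64, -0.49 and -0.30. *Fgf12*, the family member with the highest count, had a log2FC of -0.03, *Fgf13* -0.30 and *Fgf11* -0.70, none of them called, and *Fgf11* had under 75 normalized counts in each sample. The calmodulin genes *Calm2* and *Calm3*, whose product also binds the tail, had -0.21 and 0.09, without a call.

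*Bace1*, the protease that sheds the outer domain of beta subunits, was UP. It had 4172 and 3540 normalized counts in control and 5392 and 5358 in *Ash1L* shRNA samples. The knockdown samples were nearly equal and both lay above the controls, with a log2FC of 0.48 (SE 0.12, adjusted p = 0.253 by edgeR's quasi-likelihood test). *Bace1* was UP under 14 of 15 alternatives, and not without control sample 2, where its log2FC was 0.36. *Nedd4l*, a ubiquitin ligase that removes sodium channels from the membrane, had a log2FC of 0.03 (SE 0.11).

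**Figure D3:**
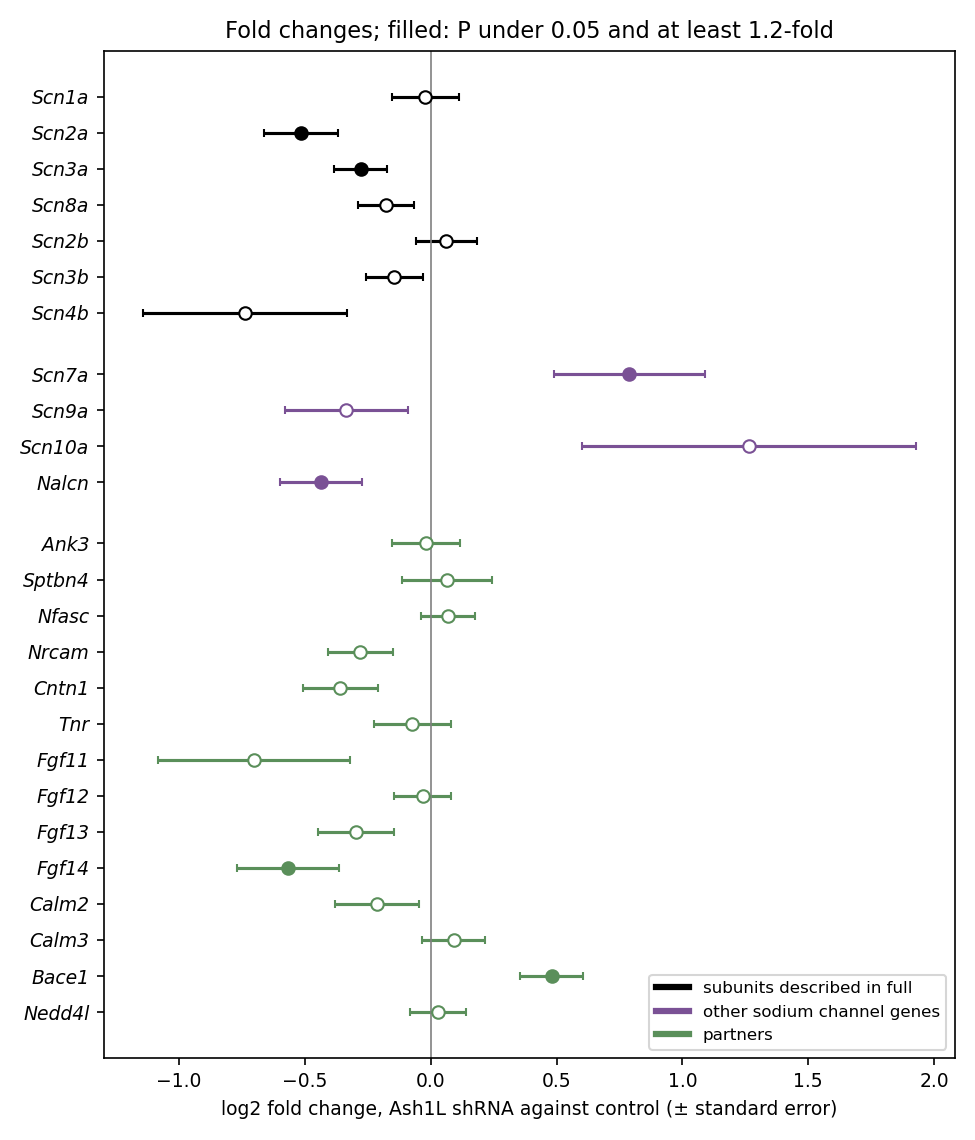
Log2FC of *Ash1L* shRNA against control samples (x axis, bars are SEs) for the 7 subunit genes, the 4 other sodium channel genes tested and 14 partner genes. Filled points passed an unadjusted P under 0.05 with at least a 1.2-fold change; *Scn2a* at -0.51 and *Scn3a* at -0.28 are the filled points among the 7.

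Of these genes, 5 lie in 1 cluster on mm10 chromosome 2, over 1328 kb from 65457118 to 66784914, in the order *Scn3a*, *Scn2a*, *Scn1a*, *Scn9a* and *Scn7a*. Between *Scn2a* and *Scn1a* lie *Csrnp3*, *Galnt3* and *Ttc21b*, and the noncoding gene *Gm13629* lies antisense beside *Scn1a*, overlapping 180 exonic bases of *Scn9a*. At the left end, *Scn3a*, *Scn2a* and *Csrnp3*, a gene for a neuronal nuclear protein, were all DOWN, with log2FC values of -0.28, -0.51 and -0.39. None of them passed the adjusted limit (*Csrnp3* adjusted p = 0.269 by edgeR's quasi-likelihood test). A link between position in the cluster and RNA values was not tested. *Galnt3* and *Ttc21b* had 0.25 and 0.16 and *Scn1a* -0.02, none of them called, *Gm13629* and *Scn9a* had -0.42 and -0.33 without a call, and *Scn7a* at the right end was UP. The counting setting for strand is not stated, so how reads in these 180 bases of *Scn9a* and *Gm13629* were assigned is not known.

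**Figure D4:**
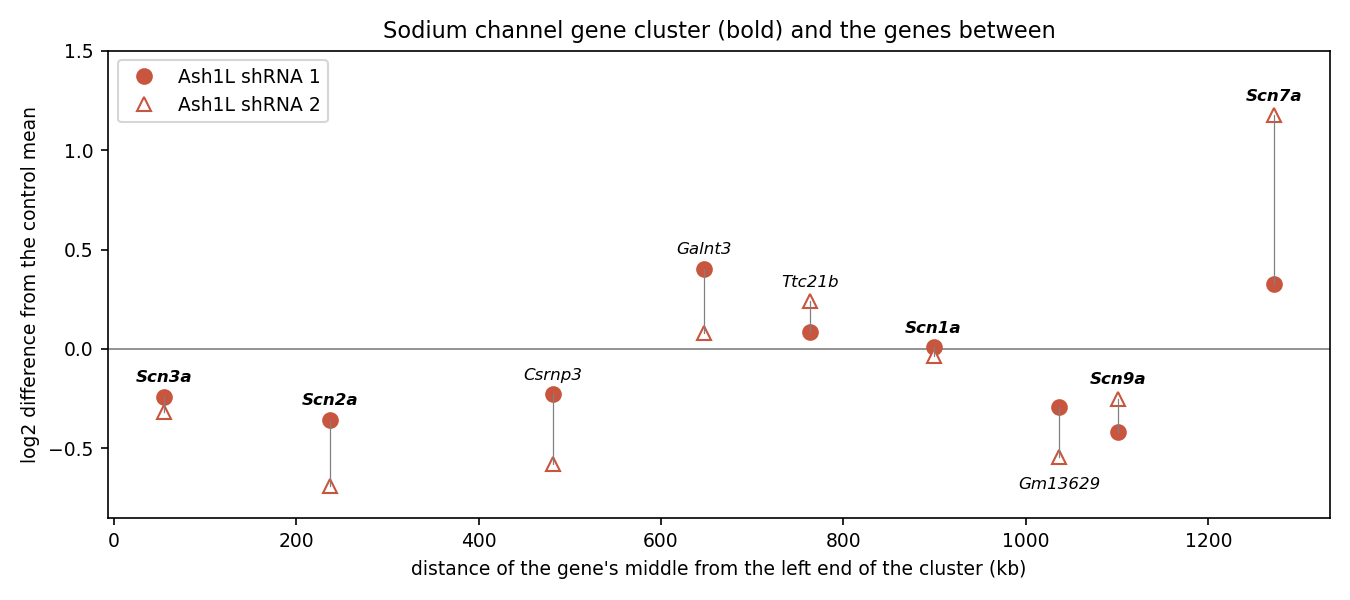
Log2 difference of each *Ash1L* shRNA sample from the control mean (y axis) for the genes of the chromosome 2 cluster by distance from its left end (x axis, kb). Bold names are sodium channel genes. *Scn2a* lies at -0.36 and -0.69, *Scn1a* at 0.01 and -0.04, and *Scn7a* at 0.32 and 1.17.

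ASH1L acts on chromatin and methylates histone H3, so promoter windows of neighbouring genes with unlike values are shown. They run from 250 bases before to 50 bases after a transcript start, from RefSeq on GRCm38.p6, the assembly of mm10. A window was at hand for 5 of the 7 subunit genes, and not for *Scn3a* and *Scn3b*. The sequences below read 5′ to 3′ along the gene, with CG dinucleotides, the sites of DNA methylation, in capitals. They are the distal and proximal starts of *Scn2a* (chr2:65620519-65620818 and chr2:65668436-65668735, plus strand), *Scn1a* (chr2:66440788-66441087, minus strand), *Scn2b* (chr9:45117626-45117925, plus strand) and *Scn4b* (chr9:45138374-45138673, plus strand).
Scn2a distal: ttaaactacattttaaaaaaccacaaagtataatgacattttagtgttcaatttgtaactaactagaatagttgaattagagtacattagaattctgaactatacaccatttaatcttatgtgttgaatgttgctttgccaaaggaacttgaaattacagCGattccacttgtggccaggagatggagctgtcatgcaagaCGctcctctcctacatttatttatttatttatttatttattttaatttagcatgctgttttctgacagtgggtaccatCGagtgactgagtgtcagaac
Scn2a proximal: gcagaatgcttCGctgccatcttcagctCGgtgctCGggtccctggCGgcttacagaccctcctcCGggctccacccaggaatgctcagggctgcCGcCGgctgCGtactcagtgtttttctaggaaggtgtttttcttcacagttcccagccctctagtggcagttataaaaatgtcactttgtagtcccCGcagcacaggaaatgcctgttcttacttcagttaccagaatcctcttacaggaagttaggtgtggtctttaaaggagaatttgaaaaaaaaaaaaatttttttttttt
Scn1a: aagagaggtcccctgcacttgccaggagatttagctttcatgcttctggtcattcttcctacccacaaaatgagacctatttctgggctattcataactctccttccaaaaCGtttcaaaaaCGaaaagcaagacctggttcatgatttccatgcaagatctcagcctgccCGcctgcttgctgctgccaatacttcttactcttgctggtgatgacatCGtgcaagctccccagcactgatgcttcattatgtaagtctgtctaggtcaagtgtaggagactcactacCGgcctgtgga
Scn2b: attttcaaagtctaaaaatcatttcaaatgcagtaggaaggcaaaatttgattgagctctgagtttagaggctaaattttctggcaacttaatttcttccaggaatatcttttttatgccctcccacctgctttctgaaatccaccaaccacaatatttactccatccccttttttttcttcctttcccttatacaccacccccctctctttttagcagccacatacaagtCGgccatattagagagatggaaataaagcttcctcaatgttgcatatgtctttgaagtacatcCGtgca
Scn4b: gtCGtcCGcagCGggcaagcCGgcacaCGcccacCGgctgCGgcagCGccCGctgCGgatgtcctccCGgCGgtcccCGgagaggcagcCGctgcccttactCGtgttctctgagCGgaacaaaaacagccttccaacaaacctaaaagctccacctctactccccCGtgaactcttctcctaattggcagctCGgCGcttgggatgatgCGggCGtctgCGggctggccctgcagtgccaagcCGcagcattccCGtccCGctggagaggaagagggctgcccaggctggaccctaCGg

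Over 32851 RefSeq promoter windows of 300 bases, the median number of CG dinucleotides was 7, with quartiles of 3 and 20. The *Scn2a* windows held 3 and 9, that of *Scn1a* held 5 and that of *Scn2b* held 2. *Scn4b* held 26, more than 83.1% of windows had, and the distal window of *Scn8a* held 38, with 12 in its proximal window. The neighbours *Scn2b* and *Scn4b* thus had very unlike windows, although neither gene was called. A link between the windows and the RNA values was not tested. Letters of a TATA box (TATAAA, either strand) were in the proximal window of *Scn2a* and in 13.6% of all windows. GGGCGG (35.7% of windows), TGACGTCA (1.79%) and TTCAGCACC (0.371%) matched in none of the 7 windows of these genes.

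Genes with the profile most like each subunit gene were found among 12462 genes with a mean normalized count of at least 100, as the smallest root mean square distance between centred log2 values over the 4 samples. With 4 samples, close profiles are common, and the names are given as a description. The nearest genes were *Pkig* and *Appl2* for *Scn2a* (distances 0.0095 and 0.011), *Slc22a17* and *Spire1* for *Scn3a*, *Trpc7* and *Helz* for *Scn8a*, *Asah2* and *Dus1l* for *Scn1a*, *Mrpl44* and *Stard3nl* for *Scn2b*, and *Dlst* and *Aph1b* for *Scn3b*. *Scn4b* had no neighbour as close. Its nearest genes were *Gm5468* and *Mmd2* at 0.039 and 0.046, and *Mmd2* shared its pattern with 4010 and 4027 normalized counts in control, 3266 in *Ash1L* shRNA sample 1 and 1443 in sample 2.

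Markers of other cell types were read the same way. Of 8 astrocyte markers, 6 were DOWN, with summed levels of 5160 to 5441 CPM in control and 2951 to 4049 in *Ash1L* shRNA samples. Of 10 general interneuron markers, 3 were DOWN and 0 UP (median log2FC -0.28), and of 8 oligodendrocyte markers 1 was DOWN (median -0.26). Of 5 markers of oligodendrocyte precursors 1 was UP, and of 6 markers of immature neurons 1 was DOWN (*Dcx*). Of 6 markers of leptomeningeal fibroblasts 1 was UP and 1 was DOWN, and 0 of 6 endothelial markers were called. The 6 microglia markers had 0 calls, and their summed level was 711 to 732 CPM in control, 899 in *Ash1L* shRNA sample 1 and 364 in sample 2, the sample in which *Scn4b* was low. No marker of these lists was at 0 in any sample. Oligodendrocyte precursors are known to hold sodium channels as well, and the part of any of these cells in the subunit values was not tested.

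**Figure D5:**
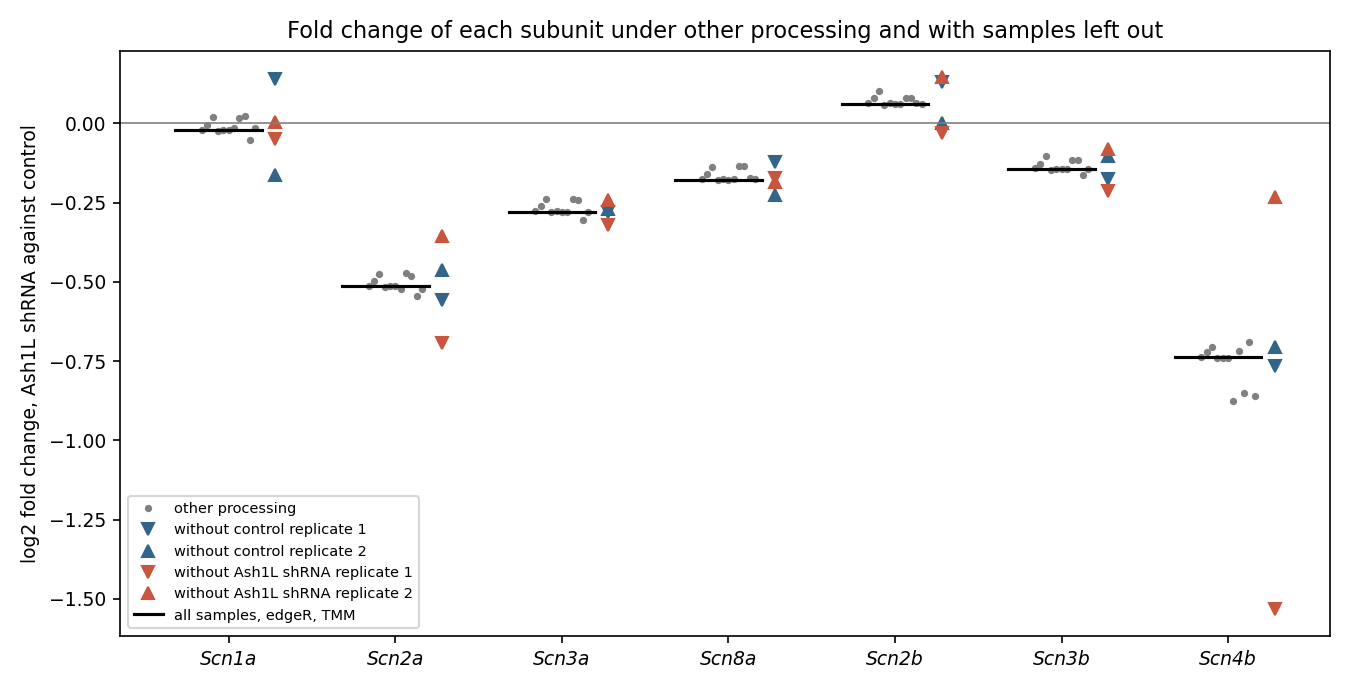
Log2FC (y axis) of each subunit gene (x axis) with all samples (line), under other processing (grey points) and with 1 sample left out (triangles). *Scn2a* stays between -0.69 and -0.36, *Scn3a* between -0.32 and -0.24, and *Scn4b* spans -1.53 to -0.23 according to which *Ash1L* shRNA sample is left out.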

How the data were processed

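Stranded libraries were prepared by the study from PFC RNA after removal of rRNA, with 2 samples per group. The authors aligned reads to mm10 (STAR) and made gene counts with featureCounts. The files hold the counts as deposited by the authors, without normalization. The labels also name Cutadapt and TopHat2, and strand and multiple-mapping settings are not given in the sources used here. Samples were grouped by title. Genes were filtered with filterByExpr, scaled with TMM and tested in edgeR 4.0.16 (R 4.3.3) with the robust quasi-likelihood F test, Benjamini-Hochberg over 16232 genes. The standard error (SE) is the log2 fold change over the root of the F statistic. DESeq2 1.42.0, other scalings, no filter, GC and length offsets, the replicate block and left-out samples were alternatives. Positions and exonic lengths came from GENCODE vM21, which matched 98.4% of symbols. Per-sample log2 differences used a pseudocount of 1. The subunit genes and all lists were chosen with earlier results of these data known.

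Same-numbered samples come from different mice, and their deviations from the group means had a correlation of -0.105 across genes, so the numbers were not taken as pairs. The named genes are the 7 subunit genes, *Ash1l*, the genes of the lists of other sodium channel genes and partners, the genes of the chromosome 2 cluster, up to 4 genes of each marker list by mean count, and the 2 nearest profiles of each subunit gene. Marker lists were summed as CPM on the effective library size. Some genes of these lists, and results that rest on them, are not reported here. The edgeR quasi-likelihood test was checked on simulated counts with the same spread for all genes. After adjustment it recovered 96 of 98 genes changed 4-fold but only 42 of 98 changed 2-fold, so differences of 2-fold were often missed. Counting error is largest in control sample 1. Replicates differed by more than counting error (chi-square per degree of freedom 14.8 in control and 42.3 in *Ash1L* shRNA samples).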

Additional observations from a re-analysis of the deposited data

How the results depend on the processing

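With 2 samples per group, calls near the limit moved easily. The number of subunit genes called DOWN was 2, and it was 1 under upper-quartile scaling, library size only, DESeq2, the likelihood ratio test, the gene length offset and the replicate block with that offset, 0 at a 1.5-fold limit (3.02% of all genes), and 0 to 3 with 1 sample left out. The share of all genes called DOWN ran in the same fits from 1.86% without control sample 2, where 0 subunit genes were called, to 16.5% without *Ash1L* shRNA sample 1, where 3 were. The replicate block alone gave 2, with *Scn4b* in place of *Scn3a*, and it gave *Scn2a* a log2 fold change of -0.52. A crossed block, added because the correlation of same-numbered samples was under -0.1, gave 2. Over all genes, 1 passed the adjusted limit in edgeR's quasi-likelihood test, 162 lower and 259 higher genes passed it in DESeq2, and 158 and 321 in the likelihood ratio test. No subunit gene was UP under any alternative, and 0 passed the adjusted limit except without *Ash1L* shRNA sample 1, where 2 did (*Scn2a* and *Scn4b*) beside 1358 lower and 1144 higher genes of 16494, so that this count ran from 0 to 2 with a sample left out.

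The median log2 fold change of the 7 genes was -0.18, and it was -0.16 under upper-quartile scaling, -0.14 with library size only, -0.13 under the length offset with or without the block (-0.1346 and -0.1343), and -0.23 to -0.18 with 1 sample left out. *Ash1l* was not DOWN under the length offset alone (-0.55) or with the block (-0.59), and ran from -0.97 to -0.31 with 1 sample left out, its call being lost without control sample 1, control sample 2 or *Ash1L* shRNA sample 2. The sign of *Scn1a* turned with library size only (0.02, 0.0185), the length offset (0.0164), that offset with the block (0.0226), and without control sample 1 (0.14) or *Ash1L* shRNA sample 2 (0.0042), where the range was -0.16 to 0.14. *Scn2b* ran from -0.0293 to 0.15 with 1 sample left out, with its sign turned without control sample 2 or *Ash1L* shRNA sample 1. *Scn8a* and *Scn3b* kept their direction under all 15 alternatives, without a call. Differences in the subunit shares printed kept their sign without division by length, with the longest transcript, and with each sample left out, except for *Scn3a* among the alpha subunits (-0.06 to 0.28 percentage points). The cause of these shifts was not tested.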
